A study of Danio rerio with 6 samples.

Results

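The genes of cytosolic and mitochondrial protein synthesis were followed in the livers of adult male zebrafish (Danio rerio) by RNA sequencing. The 116 genes described here, of 31953 gene IDs in the deposited tables, are 80 translation factors and 36 aminoacyl-tRNA synthetases. They were chosen by symbol: eif or eef followed by a digit for the factors, without the eIF2 kinases, and the one-letter amino acid code followed by ars for the synthetases. Of the synthetases, 19 carry a symbol without a final 2 and are called cytosolic here. Another 17 IDs carry a symbol ending in 2, the mark of the mitochondrial enzyme (2 of these IDs share the symbol yars2). This split is by symbol alone, so a gene whose enzyme serves both places would be counted as cytosolic. The fish came from 3 groups with 2 liver libraries each: 17β-estradiol (E2, the main natural estrogen) at 1000 nM, nonylphenol (NP, an alkylphenol formed from surfactants that can bind estrogen receptors) at 100 nM, and ethanol vehicle (control). All groups were adult males exposed for 3 weeks in flow-through tanks of 80 L with 40 fish, 1 tank for each group, so an effect of the tank and one of the treatment cannot be told apart. The compounds differ in dose as well as in kind. Whether each library holds RNA of 1 fish or of several is not stated in the labels, so p-values measure only the spread between libraries, which may be technical.

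As background, translation begins when the ternary complex of eIF2, GTP and initiator tRNA joins the small ribosomal subunit together with eIF1, eIF1A, eIF3 and eIF5. The mRNA is recruited through its cap by eIF4F, made of the cap-binding protein eIF4E, the scaffold eIF4G and the helicase eIF4A, and the 4E-BP proteins block this step by holding eIF4E. The guanine nucleotide exchange factor eIF2B recharges eIF2, and this is the step that stress kinases shut down. In elongation, eEF1A delivers charged tRNA, the eEF1B subunits recharge eEF1A, and eEF2 moves the ribosome along the mRNA. The aminoacyl-tRNA synthetases load each tRNA with its amino acid. Liver is a heavy user of this machinery because it makes most plasma proteins, and in egg-laying vertebrates estrogen turns it to the yolk precursor vitellogenin.

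The authors deposited a comparison of each treated group with the controls, and whole reads per library were recovered from the deposited means for 109 of the 116 genes. Values by library are normalised reads, that is, reads divided by the library's size factor on a scale common to the 6 libraries, and are given with the deeper library of a group first. Depth was uneven: over all recovered genes the libraries held 291768 and 24067 reads in E2, 369422 and 357491 in NP, and 568746 and 348940 in control. In the shallower E2 library 1 read is worth 9.31 normalised reads, so a value of 0 or 9.31 there is 0 or 1 read, and floors set from counts of reads cover counting error only. Called members are those with an adjusted p under 0.05 in the authors' deposited table, and "rose" and "fell" are used for these alone. The libraries were not pure hepatocytes by their markers. Of 16 acinar pancreas markers, 2 rose in E2 and 15 in NP. The 9 of them with recovered reads summed to 31.5 and 792 normalised reads in E2 and 2956 and 8049.7 in NP, against 1.98 and 34.4 in control. In the deeper control 6 of these 9 were at 0. Of 15 hepatocyte markers, 5 fell in E2 and 1 in NP, and none was without reads. Of 12 macrophage markers, 2 fell in E2 and 3 in NP, with sums of 833 and 251 in E2, 925 and 1256 in NP and 1854 and 1259 in control. The 6 intestine markers summed to 3.15 and 9.31 in E2 and 4.62 and 4.76 in NP, against 0.659 and 560.2 in control. Of the red cell markers, 2 were found and both rose in NP, where they summed to 218 and 602, against 50.1 and 41.5 in control. Of 4 germ cell markers, 3 had recovered reads, with a highest sum of 20.2 in the shallower NP library. The 7 mitochondrially encoded genes taken as a sign of sample quality had a median log2 fold change of -1.77 in E2 and -0.44 in NP in the authors' deposited tables, and 0 of 7 were called in either by the authors' DESeq2 test, with 1 at an unadjusted p under 0.05 in E2 and 0 in NP. What part these cells and the depth have in the results below was not tested. In bulk tissue, fewer cells of a type and less RNA per cell cannot be told apart.

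Few members passed the threshold. With E2, 1 of the 54 translation factors that have an adjusted p rose, the elongation factor 2 gene eef2l2, and 0 fell. Limma-voom called 0 of 67 factors in E2. At an unadjusted p under 0.05, 6 factors were higher and 1 lower by the authors' DESeq2 test, and 6 and 1 by limma-voom. In the whole table for E2, 5.77% of genes with an adjusted p were called, 2.1% higher and 3.67% lower. None of 17 synthetases passed in E2 by the authors' DESeq2 test, where 1 had an unadjusted p under 0.05, and 0 of 28 passed limma-voom run on recovered reads, with 3 under an unadjusted 0.05. By the authors' DESeq2 test over all genes with reads, 1.94% had an unadjusted p under 0.05 with higher values in E2 and 3.7% with lower ones. For NP, 1.64% had one with higher values and 2.38% with lower ones. By limma-voom 1132 of 9450 genes in E2 and 763 of 10143 in NP had one, in either direction. With NP, 0 of 63 factors passed by the authors' DESeq2 test, 3 of them with an unadjusted p under 0.05. Limma-voom called 0 of 67, with 4 under an unadjusted 0.05. Over all libraries of a comparison, limma-voom called 0 of all 9450 genes fitted in E2 and 0 of 10143 in NP. Its lack of calls among members, here and below, is therefore shared by all genes. The lysine synthetase gene kars was the 1 of 23 synthetases that fell in NP, where 2.94% of all genes with an adjusted p were called, 1.26% higher and 1.68% lower. By the authors' DESeq2 test 2 synthetases had an unadjusted p under 0.05 in NP, both with lower values. Limma-voom called 0 of 31 synthetases there, with 7 under an unadjusted 0.05, all with lower values. The remaining 26 factors and 19 synthetases in E2, and 17 factors and 13 synthetases in NP, have no adjusted p in the authors' deposited tables. The comparisons share their controls, so their values are given side by side only.

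The medians differed between roles. In the authors' deposited tables, the median log2 fold change of the factors was 0.08 in E2 and 0.24 in NP, and that of the synthetases was 0.68 in E2 and -0.07 in NP, beside -0.52 in E2 and -0.08 in NP over all genes with reads. Among genes with an adjusted p, the E2 medians were 0.20 for factors, 0.90 for synthetases and -0.22 for all genes. In NP they were 0.46, -0.39 and -0.03 in that order. Within the synthetases the cytosolic enzymes had medians of 0.90 in E2 and -0.94 in NP, and the mitochondrial ones -0.40 in E2 and 0.33 in NP, both from the authors' deposited tables. The mitochondrial medians rest on genes with few reads, and only 1 of the 17 IDs has an adjusted p in E2. Their summed normalised reads in E2, 91.3 and 112, lay above both controls (73.2 and 80.0), against the sign of that median. Within the factors the eIF3 subunits had medians of -0.49 in E2 and 0.68 in NP, and the elongation factors 0.19 in E2 and 0.94 in NP, in the same deposited tables of the authors. The E2 medians of the factors and of the synthetases changed sign without the deeper E2 library, and kept it without any other library. On recovered means without the deeper E2 library, the E2 median was -0.59 for the factors, -0.32 for all synthetases and -0.036 for the cytosolic ones. The E2 library left there had reads in 3360 recovered genes, against 11484 in the deeper one. No median of all genes was computed in that setting, so a shift shared by all genes was not tested. The eIF3 median in E2 was -0.058 without the shallower control and -0.89 without the deeper one, and 0.028 once the median of all genes was subtracted. The cytosolic median in NP was -0.56 without the deeper control.

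**Figure D1:**
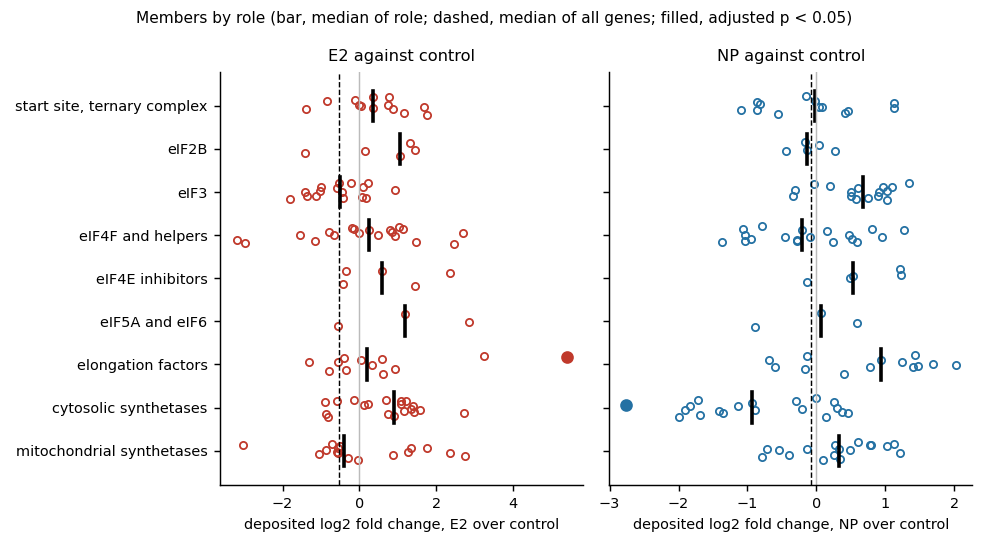
Each open circle is 1 member with reads, placed on the horizontal axis by its log2 fold change in the authors' deposited table for E2 over control (left) or NP over control (right), with roles down the page. Black bars mark the role medians, the dashed line the median of all genes (-0.52 in E2, -0.08 in NP), and the 2 filled circles are eef2l2 at 5.40 and kars at -2.76.

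Among the factors for start-site choice and the ternary complex, 0 of 11 in E2 and 0 of 12 in NP with an adjusted p passed the authors' DESeq2 test, and none of the 13 had an unadjusted p under 0.05 in either. The beta subunit gene of eIF2, eif2s2, had 539.9 and 559 normalised reads in E2 and 143 and 174 in NP, against 169 and 128 in control. Both E2 libraries lay above both controls and NP overlapped them, and the authors' deposited table gives a log2 fold change of 1.77 ± 0.98 (SE) with an adjusted p of 0.313 in E2. Of the factors with a mean of at least 10 reads, 15 of 52 lay above both controls in both E2 libraries, where 12.6% of all such genes did. Another 7 lay below, where 30.8% did. That mean, here and below, includes the treated libraries, so a gene can pass the cut through the group in which it is high. The genes eef2l2 and eef2a.1 passed in E2 in this way, and eif4e2 in NP. Genes low in the treated group can drop out instead. The shares of all genes are under the same cut. The gamma subunit gene eif2s3, which binds GTP and the tRNA, had 168 and 74.5 in E2, 494 and 568 in NP and 117 and 343 in control. Here the NP libraries were the ones above both controls, with a log2 fold change of 1.13 ± 0.71 and an adjusted p of 0.771 in the authors' deposited table. In NP, 22 of 54 factors lay above both controls, where 23.9% of all genes with a mean of at least 10 did, and 6 lay below, where 22.4% did.

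The alpha subunit of eIF2, the target of the stress kinases, is encoded by 2 genes. The copy eif2s1b had 164 and 121 normalised reads in E2 and 162 and 209 in NP, against 40.9 and 121 in control. All 4 treated libraries were above both controls, the shallower E2 library only marginally, and the copy eif2s1a overlapped the controls in both comparisons. The gene listed as eif1b, whose human counterpart in the files is EIF1, the guardian of start-codon choice, had 342 and 83.8 in E2 and 360.2 and 304 in NP, against 764 and 480.2 in control. It lay below both controls in each group, with adjusted p of 0.544 in E2 and 0.93 in NP in the authors' deposited tables. The gene eif2a, a separate factor that can also deliver initiator tRNA, had 9 and 12 reads in E2, 11 and 16 in NP and 23 and 17 in control. After normalisation that is 14.2 and 112 in E2, where the high value is that of the shallower library alone. The 8 members of the role not given by library here, eif2s1a among them, had log2 fold changes from -0.12 (eif2d) to 1.16 (eif1axa) in E2 and from -1.09 (eif1axa) to 0.46 (eif1ad) in NP in the authors' deposited tables.

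The 5 subunit genes of eIF2B were low, with between 0 and 33 reads in any library. In the authors' deposited tables their median log2 fold change was 1.06 in E2 and -0.13 in NP. The delta subunit gene eif2b4 had 32 and 4 reads in E2, 22 and 9 in NP and 33 and 18 in control, or 50.4 and 37.3, 25.4 and 10.7 and 21.8 and 18.2 normalised reads. It is the 1 subunit with both E2 libraries above both controls and a mean of at least 10, and its adjusted p there was 0.688 in the authors' deposited table. The catalytic epsilon subunit gene eif2b5 had 0 and 3 reads in E2, 8 and 4 in NP and 8 and 15 in control. The alpha, beta and gamma subunit genes eif2b1, eif2b2 and eif2b3 had log2 fold changes of 1.32, -1.41 and 1.45 in E2 and -0.16, 0.04 and 0.27 in NP in the authors' deposited tables. Neither the 1 subunit with an adjusted p in E2 nor the 4 in NP passed the authors' DESeq2 test, and none had an unadjusted p under 0.05, so no difference was detectable at these depths.

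The complex eIF3 is the large scaffold that gathers the other factors on the small ribosomal subunit. Summed over its 16 subunit genes with reads, the libraries held 1056 and 1211 normalised reads in E2 and 2570.0 and 2521 in NP, against 904 and 1948 in control. In NP, 10 of the 14 subunit genes with a mean of at least 10 lay above both controls (eif3ba, eif3c, eif3d, eif3f, eif3g, eif3ha, eif3i, eif3k, eif3m and eif3s10), where 23.9% of all genes did, and 0 lay below, where 22.4% did. A log2 fold change above 0 was listed for 13 of the 16 in the authors' deposited table for NP, where 46.5% of all genes had one. None of 15 passed the authors' DESeq2 test in NP, and none had an unadjusted p under 0.05. Limma-voom over all libraries called none of the complex. In E2, 2 of 14 lay above both controls (eif3ja and eif3s10), where 12.6% of all genes did, and 4 below (eif3ea, eif3g, eif3i and eif3m), where 30.8% did, so the share below was near that of all genes. By the authors' DESeq2 test 0 of 13 passed in E2, with none at an unadjusted p under 0.05. The controls themselves differed: 15 of the 16 subunit genes were lower in the deeper control than in the shallower one, and on recovered means without the shallower control the NP median was 1.66, against 0.34 without the deeper one.

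The RNA-binding subunit gene eif3g had 34.6 and 46.6 normalised reads in E2, 166 and 153 in NP and 48.8 and 69.9 in control. It had the smallest p of the complex in NP, with a log2 fold change of 1.34 ± 0.69, an unadjusted p of 0.0518 and an adjusted p of 0.563 in the authors' deposited table. For eif3f the values were 118 and 130.4 in E2, 275 and 345 in NP and 98.9 and 193 in control, so only NP was clear of the controls. The subunit gene eif3m was low in E2, at 28.3 and 27.9, against 237 and 191 in NP and 65.3 and 154 in control, with an E2 log2 fold change of -1.80 ± 1.12 and an adjusted p of 0.402 in the authors' deposited table. Both E2 libraries were below both controls and both NP libraries above them. A like order held for eif3ea, with 124 and 18.6 in E2, 249 and 357 in NP and 142 and 277 in control, except that NP overlapped the controls. The gene eif3s10, whose human counterpart in the files is the core subunit EIF3A, had 214 and 335 in E2 and 285 and 293 in NP, against 83.7 and 187 in control, all 4 treated libraries above both controls.

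**Figure D2:**
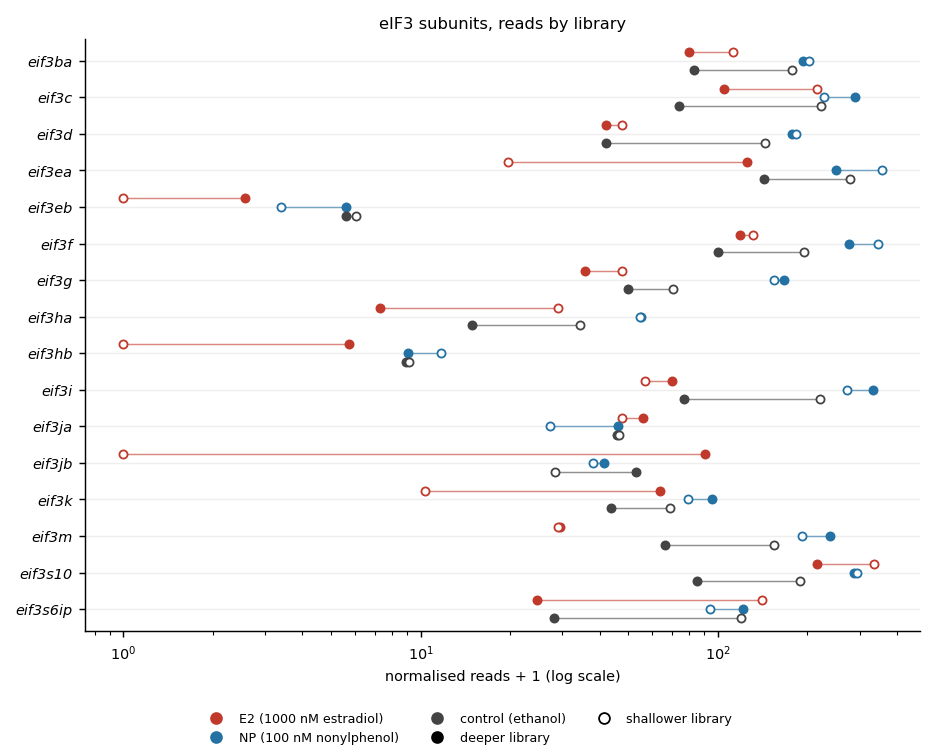
Normalised reads plus 1 on a log axis for the 16 eIF3 subunit genes with reads, with the 2 libraries of each group joined by a line (E2 above, NP below it, control lowest in each row; filled, deeper library; open, shallower library). The NP pairs of 10 genes sit to the right of both controls, and the deeper control sits left of the shallower one in 15 of 16 rows.

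Of eIF4F and helper genes with an adjusted p, 0 of 13 in E2 and 0 of 18 in NP passed the authors' DESeq2 test. Of the role's 19 genes with reads, 3 had an unadjusted p under 0.05 in E2 and 0 in NP. In E2, 1 of them (eif4a3) has no adjusted p. Limma-voom over all libraries called none. The helicase gene eif4a1a had 3140 and 79 reads in E2, 221 and 118 in NP and 1054 and 162 in control. That is 4943 and 736 normalised reads in E2, 255 and 140.3 in NP and 695 and 164 in control, so the shallower E2 library was just above the deeper control, and NP overlapped the controls. Its E2 log2 fold change was 2.47 ± 1.20 with an adjusted p of 0.222 in the authors' deposited table. The second copy, eif4a1b, had 156 and 46.6 in E2, 432 and 453 in NP and 77.8 and 266 in control, and here NP was the group above both controls, with a log2 fold change of 1.27 ± 0.73 and an adjusted p of 0.685 in the authors' deposited table. How the authors' counting split reads between such similar copies was not examined.

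The cap-binding gene eif4e1c had 323 and 37.3 normalised reads in E2, 17.3 and 7.14 in NP and 32.3 and 13.2 in control, with an E2 log2 fold change of 2.71 ± 1.22 and an adjusted p of 0.173 in the authors' deposited table. Its value in the shallower E2 library rests on 4 reads. The scaffold gene eif4g1a had 530.5 and 428 in E2, 56.6 and 92.8 in NP and 207 and 115 in control. Both E2 libraries were above both controls and both NP libraries below them, with log2 fold changes of 1.48 ± 0.999 in E2 and -1.04 ± 0.71 in NP and adjusted p of 0.459 in E2 and 0.86 in NP in the authors' deposited tables. The gene eif4a3, a helicase of the exon junction complex rather than of cap binding, had 2 and 0 reads in E2, 15 and 26 in NP and 47 and 25 in control. Its unadjusted p in E2 was 0.0452, with no adjusted p, in the authors' deposited table. The cap-binding repressor gene eif4e2 had 0 and 0 reads in E2, 11 and 17 in NP and 8 and 10 in control, which makes it at least 1.78-fold lower in E2 when a floor of 3 reads is set for the E2 group as a whole. Both genes were singled out after their values were seen.

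Of the genes that hold eIF4E back, 0 of 4 passed the authors' DESeq2 test in either comparison, with 1 at an unadjusted p under 0.05 in E2 and 0 in NP; limma-voom called none. The 4E-BP gene eif4ebp1 had 149.5 and 55.9 normalised reads in E2 and 47.3 and 41.6 in NP, against 13.2 and 22.3 in control, so all 4 treated libraries were above both controls. Its log2 fold changes were 2.36 ± 1.12 in E2, with an adjusted p of 0.21, and 1.21 ± 0.83 in NP, with 0.849, in the authors' deposited tables. The related eif4ebp3 had 386 and 46.6 in E2, 223 and 133 in NP and 12.5 and 127 in control. The controls were an order of magnitude apart for this gene, and NP lay just above the higher of them. For eif4ebp2 the values were 121 and 9.31 in E2, 160.5 and 122 in NP and 77.1 and 114 in control, with the shallower E2 library at 1 read.

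The eIF5A proteins carry hypusine and help ribosomes past difficult stretches such as runs of proline. The gene eif5a had 1730.0 and 931 normalised reads in E2, 831 and 836 in NP and 245 and 834 in control, with E2 above both controls and NP beside the higher one. Its copy eif5a2, whose mean was too high for its reads to be recovered, had a deposited mean of 1241 over the E2 and control libraries and 457 over the NP and control libraries. Its log2 fold changes were 2.84 ± 1.16 in E2, with an adjusted p of 0.122, and 0.07 ± 0.65 in NP, with 0.999, in the authors' deposited tables. The ribosome anti-association factor gene eif6 had 37.8 and 9.31 in E2, 15.0 and 25.0 in NP and 49.4 and 29.4 in control, with NP below both controls at an adjusted p of 0.999 in the authors' deposited table.

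**Figure D3:**
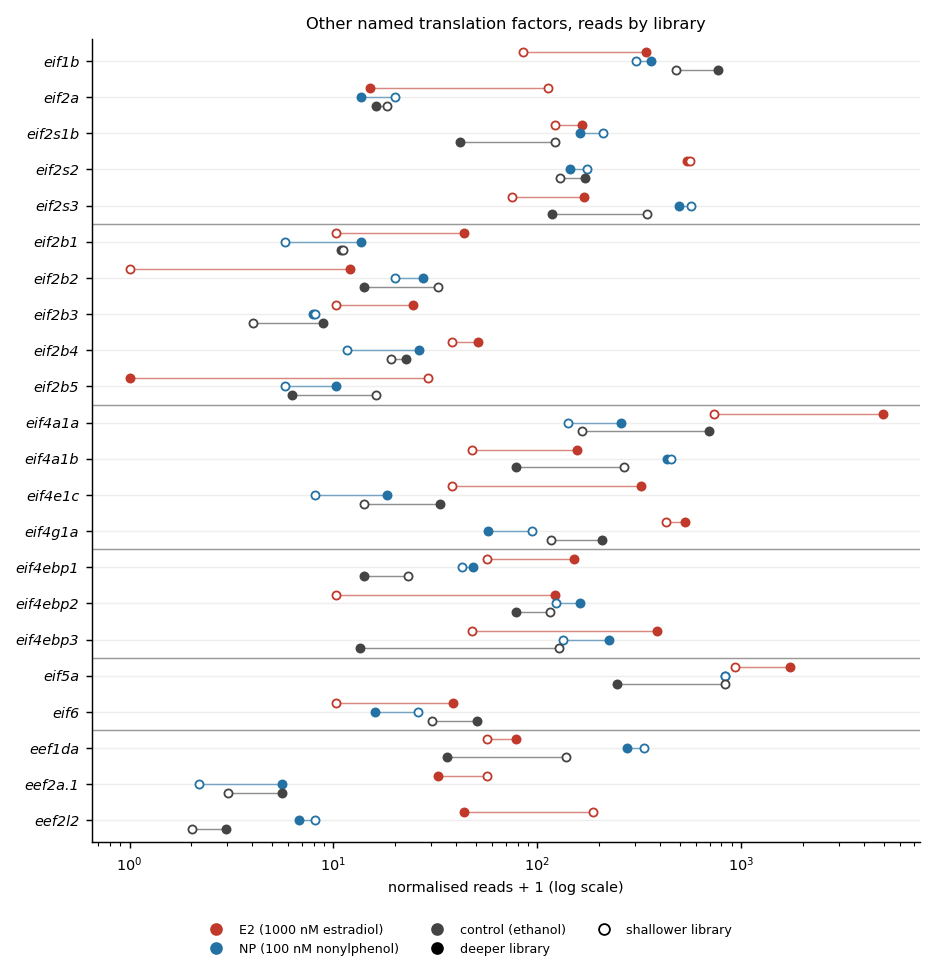
Normalised reads plus 1 on a log axis for the other named factor genes with recovered reads, with the 2 libraries of each group joined by a line (E2 above, NP below it, control lowest in each row; filled, deeper; open, shallower). Horizontal lines separate start-site and ternary complex, eIF2B, eIF4F, eIF4E inhibitors, eIF5A and eIF6, and elongation factors; the E2 pair of eef2l2, at 42.5 and 186 normalised reads, is far right of its controls at 1.98 and 1.01.

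Elongation held the 1 factor that rose with E2. The gene eef2l2 (ENSDARG00000035256), listed with the human counterpart EEF2, had 27 and 20 reads in E2 and 5 and 6 in NP, against 3 and 1 in control. Normalised, this was 42.5 and 186 in E2, 5.77 and 7.14 in NP and 1.98 and 1.01 in control, and all treated libraries were above both controls. It rose in E2 with a log2 fold change of 5.40 ± 1.32 and an adjusted p of 0.00301 in the authors' deposited table, and in NP, where it has no adjusted p, the log2 fold change was 1.47 ± 1.30. By limma-voom on the recovered reads the E2 value was 5.33 with an adjusted p of 0.272, in a fit that called 0 of 9450 genes. Without the filter on low reads it was 5.34 with 0.00306, in a fit that called 128 of 17043. A call by that method thus depends on the filter. Leaving out each library in turn, which leaves 1 library in a group, the same method gave values between 4.38 and 6.43. Another gene of the eEF2 family, eef2a.1, had 20 and 6 reads in E2, 4 and 1 in NP and 7 and 2 in control. Its log2 fold change in E2 was 3.26 ± 1.25 with an adjusted p of 0.0956 in the authors' deposited table, under 0.1 but not under 0.05. The main copy by level was eef2b. Its means in the authors' deposited tables, whose scales differ, were 1161 for E2 and control and 2643 for NP and control. Its log2 fold changes were 0.33 ± 1.08 in E2 and 0.94 ± 0.68 in NP, with adjusted p of 0.914 in E2 and 0.905 in NP, in the authors' deposited tables. Whether the copies differ in their response was not tested.

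The tRNA carrier gene eef1a1l1 had the highest mean of all members in each deposited table. Its means were 2642 for E2 and control and 7868 for NP and control, on scales that differ between the tables. In the authors' deposited tables its log2 fold changes were 0.04 ± 1.07 in E2 and 1.24 ± 0.70 in NP, with an adjusted p of 0.661 in NP. The gamma subunit gene eef1g, an anchor of the exchange complex, had a log2 fold change of 2.02 ± 0.77 in NP, an unadjusted p of 0.00835 and an adjusted p of 0.181, against 0.59 ± 1.099 in E2, in the authors' deposited tables. The exchange factor gene eef1da had 77.1 and 55.9 normalised reads in E2, 275 and 334 in NP and 34.9 and 138 in control. The exchange factor gene eef1b2 had 164 and 326 in E2, 346 and 326 in NP and 83.1 and 157 in control. For both genes NP lay above both controls, and their log2 fold changes in NP were 1.69 ± 0.75 for eef1da, with an adjusted p of 0.386, and 1.40 ± 0.68 for eef1b2, with 0.485, in the authors' deposited table. The other delta copy, eef1db, overlapped the controls, at 401 and 55.9 in E2, 499 and 461 in NP and 468 and 249 in control. So 3 of these 4 exchange complex genes had an unadjusted p under 0.05 in NP, beside 1.64% of all genes with reads, and 0 of 4 passed after adjustment. The 4 were partly picked by these values. Of them eef1g and eef1da were named for their small p in NP, and eef1b2 and eef1db were added after their values were seen. The delta ID EEF1D (2 of 3), not among the 4, had an unadjusted p of 0.321 in NP by the authors' DESeq2 test.

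Among elongation genes that are not factors themselves, the eEF2 kinase gene eef2k, which inactivates eEF2, had 4.72 and 46.6 normalised reads in E2, 58.9 and 25.0 in NP and 17.1 and 27.4 in control, overlapping in both comparisons. The eEF2 methyltransferase gene eef2kmt and eef1e1, a part of the multisynthetase complex, had 9 reads or fewer in every library. The genes eef1a1a, eef1a1b, eef1a2, eef2a.2 and EEF1D (2 of 3) had at most 4 reads in any library, and eif4e1b, eif3bb and EIF3J (3 of 3) had none.

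The cytosolic synthetases were the role with the lowest median in NP. Summed over the 19 genes they came to 2490.3 and 1267 normalised reads in E2 and 599 and 714 in NP, against 1882 and 849.9 in control. In NP, 8 of the 17 genes with a mean of at least 10 lay below both controls (cars, eprs, hars, kars, nars, rars, tars and yars), where 22.4% of all genes did, and 2 lay above (farsb and sars), where 23.9% did. In the authors' deposited table for NP, 5 of 19 had a log2 fold change above 0, where 46.5% of all genes did. In E2, 5 of 19 lay above both controls (gars, larsb, mars, qars and sars), where 12.6% of all genes did, and 2 below (dars and farsb), where 30.8% did. In the authors' deposited table for E2, 14 of 19 had a log2 fold change above 0, where 33.9% of all genes did. The shares above 0 are over every gene with reads, including those without an adjusted p. Among genes with one, the E2 median was 0.99 for 16 cytosolic synthetases and -0.22 for all genes.

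The lysine synthetase gene kars (ENSDARG00000103799) was the 1 synthetase called. It had 57 and 68 reads in NP and 274 and 18 in E2, against 1649 and 123 in control, or 65.8 and 80.9 normalised reads in NP, 431 and 168 in E2 and 1087 and 125 in control. Both NP libraries lay below both controls, but the deeper control stood 8.73 times above the shallower one. In the authors' deposited table kars fell in NP with a log2 fold change of -2.76 ± 0.83 and an adjusted p of 0.0344, and in E2 it was -0.90 ± 1.20 with 0.763. By limma-voom without the deeper control library, which leaves 1 control library, the NP value was -0.79. Without kars the cytosolic sum was 533 and 633 in NP and 2059 and 1099 in E2, against 794 and 725 in control. In that sum NP lay below and E2 above both controls. With kars included the shallower E2 library lay below the deeper control. The sum without kars was not planned: kars was left out after its values were seen.

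Other synthetases showed smaller differences that did not pass. The asparagine enzyme gene nars had 4.62 and 7.14 normalised reads in NP, 101 and 9.31 in E2 and 39.6 and 18.2 in control, with an NP log2 fold change of -2.00 ± 0.97, an unadjusted p of 0.0406 and an adjusted p of 0.502 in the authors' deposited table. The threonine enzyme gene tars had 16.2 and 11.9 in NP, 184 and 55.9 in E2 and 73.8 and 28.4 in control. The cysteine enzyme gene cars had 6.93 and 10.7 in NP, 161 and 27.9 in E2 and 46.2 and 21.3 in control. In both genes NP lay below both controls and the E2 libraries spread from inside the range of the controls to above it. The leucine enzyme gene larsb had 165 and 8 reads in E2, 4 and 14 in NP and 41 and 16 in control, or 259.7 and 74.5 normalised reads in E2, 4.62 and 16.6 in NP and 27.0 and 16.2 in control. Both E2 libraries lay above both controls, and its E2 log2 fold change was 2.73 ± 1.11 with an adjusted p of 0.122 in the authors' deposited table. The alanine enzyme gene aars, the highest of the role after kars, had 638 and 149 in E2, 147 and 257 in NP and 114 and 174 in control. The serine enzyme gene sars had 86.6 and 261 in E2, 58.9 and 71.4 in NP and 50.1 and 53.7 in control, the 1 cytosolic synthetase with both E2 and both NP libraries above the controls. The genes tars and cars were singled out after their values were seen.

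Several cytosolic synthetases sit together in the multisynthetase complex. Its 8 synthetases in the list (dars, eprs, iars, kars, larsb, mars, qars and rars) had a median log2 fold change of 0.66 in E2 and -0.92 in NP in the authors' deposited tables, and the 11 cytosolic synthetases outside it had 0.90 in E2 and -1.14 in NP. Its part eef1e1, counted with the factors, is not in these medians. In the same tables eef1e1 had -2.01 ± 2.02 in E2 and -1.19 ± 1.43 in NP, with 0 reads in E2 and 8 in control.

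The mitochondrial synthetases were near the lower limit of what these libraries can show. None of 1 with an adjusted p in E2 and none of 4 in NP passed the authors' DESeq2 test, none of the 17 had an unadjusted p under 0.05 in either, and limma-voom called none. Summed over the 17 IDs they had 91.3 and 112 normalised reads in E2, 70.4 and 113 in NP and 73.2 and 80.0 in control. In the shallower E2 library 10 of the 17 IDs had 0 reads. The isoleucine enzyme gene iars2, the highest of them, had 25.2 and 9.31 in E2, 10.4 and 32.1 in NP and 20.4 and 37.5 in control, overlapping throughout. The cysteine enzyme gene cars2 had 14.2 and 18.6 in E2, 9.24 and 20.2 in NP and 4.62 and 7.09 in control, above both controls in all 4 treated libraries, with 9 and 2 reads in E2, 8 and 17 in NP and 7 and 7 in control. The valine enzyme gene vars2 had 0 and 0 reads in E2, 3 and 4 in NP and 11 and 6 in control, which is at least 1.68-fold lower in E2 on the same floor. The glutamate enzyme gene EARS2 had 8 and 1 reads in E2, 2 and 7 in NP and 3 and 1 in control. Of the 2 IDs named yars2, ENSDARG00000101563 had 11 and 0 reads in E2, 0 and 0 in NP and 1 and 1 in control, so its E2 value comes from 1 library.

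**Figure D4:**
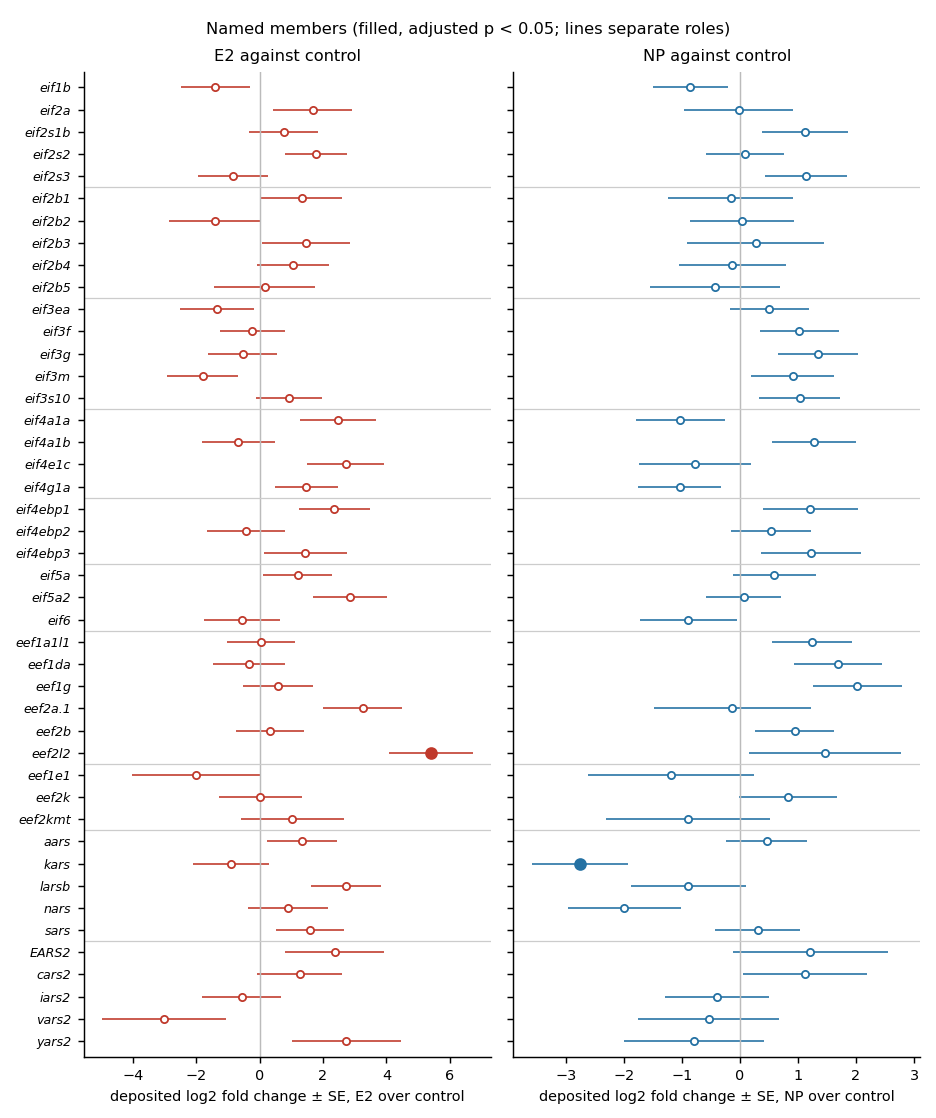
Log2 fold changes with their standard errors from the authors' deposited tables, E2 over control on the left and NP over control on the right, for the 44 named members in order of role. The 2 filled points are eef2l2 in E2, at 5.40, and kars in NP, at -2.76, and no other named member passed the threshold.

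Genes around this machinery were counted from lists taken by symbol. ATF4 is the transcription factor translated when eIF2 is phosphorylated. Of eIF2 kinases and ATF4 targets, 2 of 12 with an adjusted p rose in E2, where 2.1% of all genes did, and 0 fell. In NP 0 of 14 passed, both by the authors' DESeq2 test. Over the 26 list genes with reads in NP, 2 were under an unadjusted 0.05. Of these, 1 was higher (shmt2, without an adjusted p) and 1 lower (slc3a2a). The pseudokinase gene trib3 had 96.0 and 251 normalised reads in E2, 6.93 and 10.7 in NP and 13.8 and 5.07 in control, and rose in E2 with a log2 fold change of 3.81 ± 1.13 and an adjusted p of 0.0227 in the authors' deposited table. The folate enzyme gene mthfd2 had 77.1 and 270.1 in E2, 5.77 and 9.51 in NP and 13.2 and 2.03 in control, and rose in E2 by 4.01 ± 1.22 on the log2 scale with an adjusted p of 0.0261 in the authors' deposited table. By limma-voom the E2 values were 4.01 for trib3 and 4.61 for mthfd2, each with an adjusted p of 0.365, in a fit that called 0 of 9450 genes. Without the filter on low reads the adjusted p was 0.116 for trib3 and 0.0372 for mthfd2. Leaving out each library, which leaves 1 library in a group, the E2 value lay between 3.13 and 4.77 for trib3. For mthfd2 it lay between 3.02 and 5.48. Of the factor's own genes, atf4b had 372 and 93.1 in E2, 42.7 and 36.9 in NP and 90.3 and 69.9 in control. The other, atf4a, had 72.4 and 9.31 in E2, 39.3 and 16.6 in NP and 81.8 and 38.5 in control. Neither passed. Of 12 list genes with a mean of at least 10, 4 lay above both controls in E2, where 12.6% of all genes did. Below both lay 1, where 30.8% did. That mean includes E2, and trib3 and mthfd2 passed the cut through their E2 reads. The targets sesn2 and psat1, high in the deeper E2 library, had 0 reads in the shallower one. The medians of the list were 0.49 in E2 and -0.52 in NP in the authors' deposited tables.

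Of the genes of mTORC1 and cap-dependent control, 0 of 12 with an adjusted p passed the authors' DESeq2 test in E2. Over the 25 with reads there, 1 (pabpc4, without an adjusted p) was under an unadjusted 0.05. In NP 1 of 18 rose by the same test, where 1.26% of all genes did. That gene was mtor, the kinase that phosphorylates the 4E-BPs: it had 169.7 and 13.1 normalised reads in NP and 12.6 and 0 in E2, against 9.23 and 6.08 in control, and rose in NP with a log2 fold change of 3.11 ± 0.96 and an adjusted p of 0.0418 in the authors' deposited table. The 2 NP libraries of mtor thus stood far apart, at 147 and 11 reads. By limma-voom the NP value of mtor was 2.60 with an adjusted p of 0.664, in a fit that called 0 of 10143 genes. Without the deeper NP library, which leaves 1 NP library, the value was 0.80. The poly(A)-binding protein gene pabpc1a had 1270.0 and 1037 in NP, 431 and 661 in E2 and 378 and 550.1 in control, NP above both controls, and did not pass. Over the 26 list genes with reads in NP, 3 (mtor, akt1s1 and mknk2b, all higher) were under an unadjusted 0.05 by the authors' DESeq2 test, where 1.64% of all genes were. Of 17 list genes with a mean of at least 10, 9 lay above both controls in NP, where 23.9% of all genes did. Below both lay 1, where 22.4% did. That mean includes NP, and mtor and TSC2 passed the cut through their NP reads. In E2 all 12 such genes overlapped the controls. The list medians were 0.02 in E2 and 0.81 in NP in the authors' deposited tables. Of termination, recycling and scaffold genes, 0 of 6 passed in E2 and 0 of 11 in NP, with 1 in E2 and 0 in NP under an unadjusted 0.05, and of mitochondrial translation factors 0 of 2 and 0 of 5, with none under an unadjusted 0.05, all in the authors' DESeq2 tests. In the authors' deposited tables the first list had medians of -0.21 in E2 and -0.52 in NP, and the second -0.39 in E2 and -0.04 in NP.

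The difference between the compounds was tested on the recovered reads with limma-voom over all 6 libraries. None of 67 factors and 32 synthetases passed an adjusted p of 0.05, as did none of all 10764 genes fitted (0.0%). At an unadjusted p under 0.05, 12 factors were higher and 7 lower in NP than in E2, and 0 synthetases were higher and 6 lower, beside 11.1% higher and 5.27% lower of all genes. The smallest adjusted p among members, 0.124, was that of eef2a.1, with a log2 difference of NP minus E2 of -3.72 (95% interval -5.66 to -1.78). This interval and those below are for single genes, without adjustment for the 10764 genes fitted. An interval clear of 0 is therefore not a call. The genes given here were also named for their small p against control in these same libraries, so their intervals are not independent of that choice. For eef2l2 the difference was -3.48 (95% interval -5.39 to -1.58), for larsb -3.87 (95% interval -5.99 to -1.75) and for eif4g1a -2.59 (95% interval -4.17 to -1.002), each an estimate below 0. For eif3m it was 2.96 (95% interval 1.31 to 4.60) and for eif3g 2.06 (95% interval 0.55 to 3.56), each an estimate above 0. For kars, called in NP against control, the difference of NP minus E2 was -1.84 (95% interval -4.56 to 0.88), an interval that holds 0. With 2 libraries in each group an exact permutation test of a single value cannot go below 0.333, so none is given.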

How the data were processed

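Liver RNA of 6 zebrafish libraries was sequenced. Per the submitters' processing notes, reads were handled with TopHat2, HTSeq and DESeq2 on GRCz10; versions and settings are not given in the sources used here. Per the file headers, the deposited data are 2 tables, one for each treated group against the controls, with 32760 rows each for 31953 gene IDs (repeated rows hold the same values and were used once). Their deposited signal is a gene's normalised read count averaged over 4 libraries. The deposited log2 fold change has its standard error beside it, and the deposited score is their ratio, the Wald statistic. The deposited p-value and its Benjamini-Hochberg adjusted p-value come from the authors' DESeq2 fit; 3241 of the 17208 genes with E2 or control reads carry an adjusted value (means from 12.6), and 6799 of 18067 in the other table (means from 6.64). The test planned for tables without values per library was the authors' own, and it was used.

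The members and gene lists were chosen with earlier results of these data known. Named genes were called members and, in each role, the 2 with the largest deposited mean and the 2 with the smallest p in each comparison; other genes named as part of a count were chosen after their values were seen. Whole reads per library were recovered from the deposited means, in which 1 read of a library is worth a fixed step: each gene's 2 means were solved together for 6 whole counts. This gave exactly 1 solution for 18428 genes of the 18593 that have reads (99.11%), with means up to 1000. They hold 47.3% of all deposited means summed for E2 and 37.7% for NP. Of 1009 altered means used as decoys 10 had a solution, 9 of them among 131 with means over 500. The size of a step does not say which sample it is from, so the libraries of a group are told apart by size factor alone, which relative to the smallest were 5.92 and 1 in E2, 8.07 and 7.83 in NP, and 14.1 and 9.19 in control. Members unsolved with reads were eef1a1l1, eef1g, eef2b and eif5a2. The deposited fold changes were drawn toward 0: their size was below that of the recovered ratio in 72 of 86 members for E2 and 93 of 95 for NP with over 3 reads in both groups. Alternatives used limma-voom (limma 3.58.1, R 4.3.3) on the recovered reads with TMM normalisation, with at least 10 reads in all, tested on simulated data. The table is without strand information, so overlapping genes cannot be told apart. Recovery and figures used Python 3.11.15, numpy 2.4.6, pandas 2.3.3, numba 0.67.0 and matplotlib 3.10.9.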

Additional observations from a re-analysis of the deposited data

How the results depend on the processing

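No paired analysis was possible because the labels give no replicate numbers shared between groups. The 1 factor called in E2 became 2 at an adjusted p under 0.1 and 7 at an unadjusted p under 0.05. By limma-voom with TMM or with the recovered size factors the count became 0, and those fits called 0 of all 9450 genes. It stayed 1 (eef2l2) by limma-voom without a filter, which called 128 of 17043 genes. Fits without 1 library leave 1 in a group, so their counts of calls are not given. The 0 synthetases called in E2 became 1 at an unadjusted p under 0.05. The 0 factors called in NP became 3 at an unadjusted p under 0.05. Limma-voom without the shallower control library, which leaves 1 control library, gave higher values in NP for eef1b2, eef1da, eif2s3, eif3d, eif4a1b, eif4ebp3 and eif5a. Their log2 fold changes ran from 1.84 (eif5a) to 3.83 (eif4ebp3). These 7 were picked by their values in that fit. The 1 synthetase called in NP, kars, became 0 with adjustment over all genes with a p (its adjusted p 0.0913) and 2 at an unadjusted p under 0.05. By limma-voom with TMM or with size factors the count became 0, and those fits called 0 of all 10143 genes. It was also 0 by limma-voom without a filter, which called 67 of 17902 genes. The median of all synthetases in E2, 0.68, was 1.205 after subtracting the median of all genes and -0.32 to 0.96 without each library, negative without the deeper E2 library; that of the cytosolic enzymes, 0.90, was -0.036 to 1.17. The NP median of the factors, 0.24, was 0.50 over members with a mean of at least 10 and 0.46 over those with an adjusted p. That of all synthetases in NP, -0.07, was -0.39 under either restriction and -0.23 to 0.018 without each library. The cytosolic NP median, -0.94, was -1.37 to -0.56, and the eIF3 NP median, 0.68, was 0.34 to 1.66. The medians of cytosolic synthetases and of eIF3 under other settings were added after seeing the data. The remaining 103 counts and medians moved by under 1.5 times (counts) or by under 1 SD of the medians over pairs of a treated and a control library. Of these, 4 medians changed sign: factors in E2 (-0.59 without the deeper E2 library), eIF3 in E2 (0.028) and all synthetases in NP (0.011) after subtracting the median of all genes, and all synthetases in NP without the shallower control library (0.018). Of 865 values of single genes 804 kept their call, the uncalled ones moving by less than the deposited standard error (27 of these changed sign), 12 lost a call, 15 gained one, 34 uncalled ones moved further and 0 turned a called direction round; the cause was not tested. The 12 lost calls include those under limma-voom with TMM and with size factors, which called no gene at all. The 15 gained calls arose at the looser cutoffs or in 1 limma-voom fit. The cutoffs were an adjusted p under 0.1 and an unadjusted p under 0.05. The fit was that without the shallower control library, which leaves 1 control library. Depth limits the mitochondrial synthetases and the eIF2B subunits, which have few reads, and values from the shallower E2 library rest on few reads.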
